A study of Homo sapiens with 6 samples.

Results

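Collagen genes were examined in SaOS-2 cells with and without induced p21. They were taken as the 43 rows, among 23228 rows of the deposited table, whose symbol has the form of COL, a type number, A and a chain number. COL26A1, listed under the older symbol EMID2, does not have this form and was left out. Of the 43 genes, 27 had a mean normalized count of at least 10 over the 6 libraries and were tested, and 16 fell under this minimum.

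SaOS-2 is an established osteosarcoma cell line that lacks functional RB and p53, and these cells carry a Tet-inducible vector for p21, the CDK inhibitor encoded by CDKN1A. The 3 libraries labelled p21 OFF were from untreated cells and the 3 labelled p21 ON from cells given 1 µg/ml doxycycline for 24 h, so all 6 carry the vector in the same RB- and p53-deficient line. No doxycycline control lacking the vector was analysed here, so changes due to the antibiotic and changes due to p21 cannot be told apart. Nothing in the labels says whether the libraries of a group came from separate cultures, so p-values measure the spread between these libraries, which may be technical. CDKN1A had 1257, 1187 and 1355 normalized counts under p21 OFF and 40470, 43863 and 46739 under p21 ON, which fits the labels. A library held 12795490 to 21975045 reads on genes under p21 OFF and 12918390 to 16630552 under p21 ON. Of 13255 genes tested, 1393 were higher and 1681 lower in p21 ON (limma, Benjamini-Hochberg adjusted p under 0.05), and scaling by library size alone gave 2034 and 1194.

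Collagens are the main structural proteins of the extracellular matrix, built as triple helices of 3 alpha chains that are the same or different gene products. Fibrillar collagens assemble into fibrils, fibril-associated collagens (FACITs) sit on the fibril surface, and network-forming collagens build sheets such as basement membranes. Osteoblasts, the lineage osteosarcoma resembles, are known for bone matrix made mainly of type I collagen, a trimer of COL1A1 and COL1A2 chains. Collagen genes have many exons and long messenger RNAs, and in these libraries the fold change rose with transcript length over all genes, which is set out beside the counts.

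The p21 ON libraries had more RNA of 9 collagen genes and less of 1, while the 4 most abundant collagen chains did not pass the test, COL5A1 passing in some alternative fits. COL24A1, COL7A1, COL4A4, COL16A1, COL27A1, COL8A2, COL12A1, COL14A1 and COL9A2 were higher and COL4A6 was lower. Over all genes tested, 10.5% were higher and 12.7% lower, against 33.3% and 3.70% of the 27 collagen genes. Among genes tested with a canonical transcript of 5413 to 7911 bases, the middle range of the collagen genes, 14.9% were higher and 5.69% lower. The median log2 fold change of the 27 genes was 0.23 with an interquartile range of 0.055 to 0.44, and that of all genes tested was 0.0056. The fold change was positive for 24 and negative for 3 of the 27. In 12 collagen genes the 3 p21 ON libraries all lay above the 3 p21 OFF libraries and in 1 all lay below, against 19.1% and 21.3% of all genes tested. Fold changes here are differences of log2(normalized count + 1), which understate the change of weakly expressed genes.

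Promoter sequence is shown for 3 genes past the threshold: COL4A4 and COL4A6, each of which lies head to head with another type IV collagen gene and shares its upstream region with it, and COL16A1, which had the largest fold change of the 27. The windows are the 250 bases upstream of a RefSeq start on GRCh38.p14, for COL4A6 the one nearer to COL4A5 of the 2 listed, all on the minus strand and written 5′ to 3′. For COL4A4 (chr2:227164206-227164455) capitals mark the 82 bases that also lie in the 250 bases upstream of COL4A3. For COL4A6 (chrX:108439459-108439708) they mark the 121 bases shared with the window upstream of COL4A5. For COL16A1 (chr1:31704018-31704267) they mark 2 copies of the GC box GGGCGG.
COL4A4: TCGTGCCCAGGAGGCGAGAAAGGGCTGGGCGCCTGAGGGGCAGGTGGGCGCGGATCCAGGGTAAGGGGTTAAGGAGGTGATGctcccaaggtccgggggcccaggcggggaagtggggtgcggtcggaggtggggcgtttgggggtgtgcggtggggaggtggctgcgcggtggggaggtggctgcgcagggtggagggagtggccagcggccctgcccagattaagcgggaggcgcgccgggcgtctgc
COL4A6: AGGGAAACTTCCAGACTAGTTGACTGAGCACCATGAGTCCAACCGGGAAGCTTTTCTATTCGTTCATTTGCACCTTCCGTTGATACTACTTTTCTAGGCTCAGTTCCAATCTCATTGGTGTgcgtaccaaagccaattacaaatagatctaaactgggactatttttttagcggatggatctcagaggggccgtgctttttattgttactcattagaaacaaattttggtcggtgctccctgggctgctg
COL16A1: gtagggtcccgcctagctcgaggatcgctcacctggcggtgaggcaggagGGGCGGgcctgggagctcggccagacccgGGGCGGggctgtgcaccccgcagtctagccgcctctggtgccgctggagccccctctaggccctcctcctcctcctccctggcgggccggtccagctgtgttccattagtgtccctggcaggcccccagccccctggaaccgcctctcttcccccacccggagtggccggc

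The COL4A4 window had a GC content of 72.8% and the COL16A1 window 73.2%, against 44% for COL4A6 at the start shown. The starts used are separated by 418 bases for COL4A4 and COL4A3 and by 379 bases for COL4A6 and COL4A5. In windows that add 50 bases downstream of the start, 31 of the 43 collagen genes had an entry, with 43 windows in all. Their median GC content was 63.3%, against 58.7% over 35116 windows of all genes. The GC box GGGCGG, searched on both strands, was in 55.8% of the collagen windows and 45% of all windows. For CCAAT the shares were 32.6% and 34.6%, for TATAAA 18.6% and 11.5%, and for TTTGAA 16.3% and 15.2%. The letter matches describe these windows and say nothing of factors bound there.

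**Figure D1:**
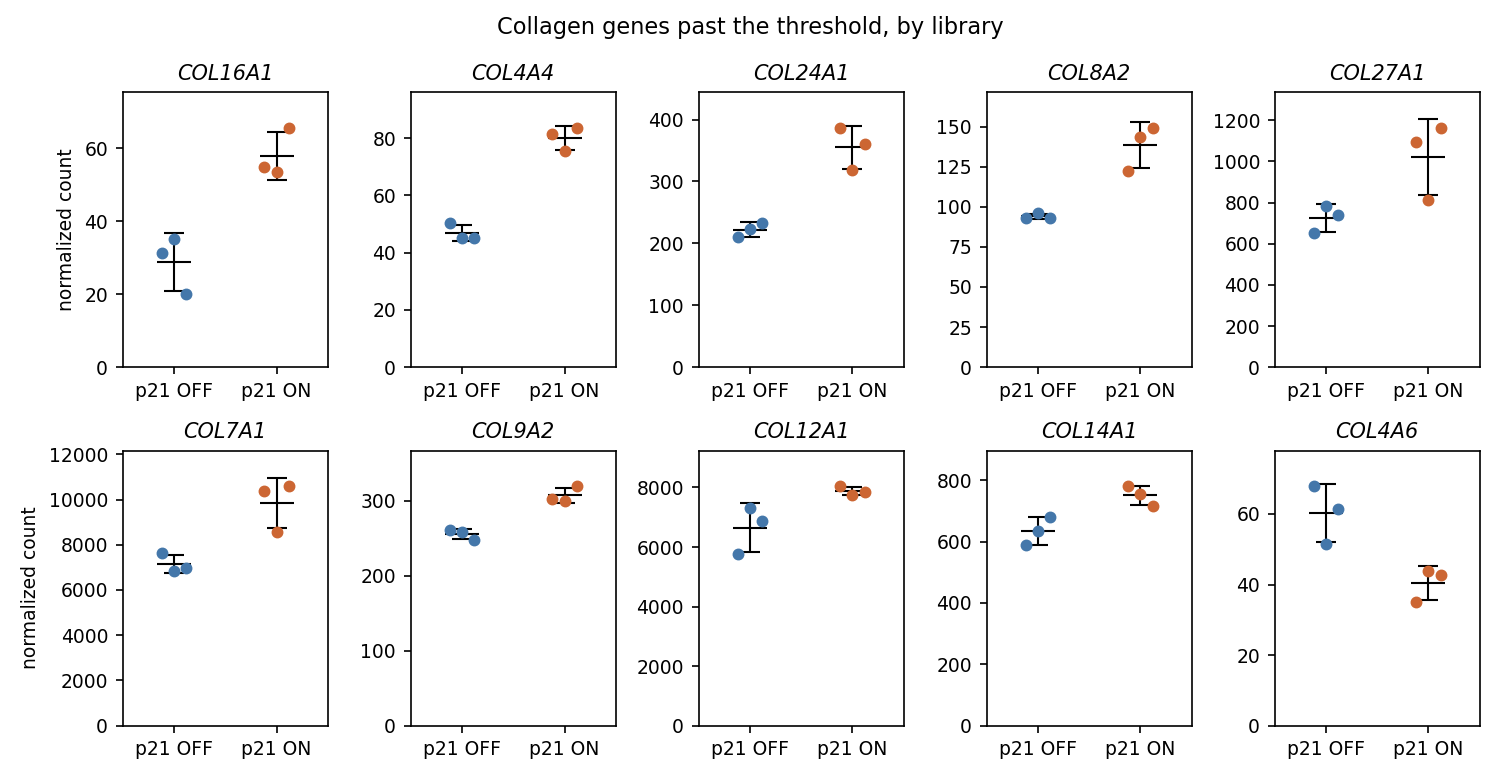
Normalized counts (y axis, from 0) of the 10 collagen genes past the threshold in each library, with p21 OFF in blue and p21 ON in orange. Points are libraries, and the black lines give the mean and SD of 3 libraries. In 9 genes all p21 ON libraries lie above all p21 OFF libraries, and in COL4A6 all lie below. The genes were picked by a test on these same libraries. Over all genes tested, 19.1% lay above and 21.3% below.

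Counts by class, here and below, stand beside 10.5% higher and 12.7% lower of all genes tested. Among the 11 genes for fibrillar collagens, 8 were tested, 2 were higher and none was lower, with a median log2 fold change of 0.15. COL24A1 encodes a fibrillar chain of developing bone and cornea. Its gene lies at chr1:86194916-86622626 on GRCh37 (minus strand), with a canonical transcript of 60 exons and 6834 bases. It had 210, 223 and 234 normalized counts under p21 OFF and 386, 318 and 361 under p21 ON. All p21 ON values lay above all p21 OFF values, and the log2 fold change of 0.67 (SE 0.095, limma adjusted p = 6.5e-05) had the lowest adjusted p among the collagens. COL27A1, a fibrillar chain known from cartilage, had 652, 784 and 741 normalized counts under p21 OFF and 1093, 813 and 1163 under p21 ON. The second p21 ON library lay near the p21 OFF values and the other two well above them, with a log2 fold change of 0.48 (SE 0.11, limma adjusted p = 0.00364).

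The other 6 tested fibrillar genes did not pass the threshold. At an unadjusted p under 0.05, 5 fibrillar genes were higher and 0 lower in limma, edgeR and DESeq2. The share of all genes at an unadjusted p under 0.05 is not given here, so such counts, here and below, have no background beside them. COL1A1, the main chain of bone collagen, had 7608, 7190 and 6936 normalized counts under p21 OFF and 7672, 7794 and 8533 under p21 ON. The groups did not overlap, but the first p21 OFF library was close to the first p21 ON library, and the log2 fold change was 0.14 (SE 0.062, limma adjusted p = 0.103). COL1A1 passed with scaling by library size alone (limma adjusted p = 0.0331), with the genomic span trend taken out (0.0218) and without p21 OFF replicate 1 (0.0136). COL11A1, a chain of the thin cartilage fibrils, had a log2 fold change of 0.16 (SE 0.061, limma adjusted p = 0.0617), with 4479 to 5094 normalized counts under p21 OFF and 5343 to 5524 under p21 ON, and it passed with library size scaling (limma adjusted p = 0.0169). COL5A1, a chain of the type V collagen that initiates fibrils, had 42551, 49040 and 53718 under p21 OFF and 54632, 53166 and 58171 under p21 ON. Its groups overlapped through the third p21 OFF library, with a log2 fold change of 0.20 (limma adjusted p = 0.0795). COL5A2, its partner chain, had a log2 fold change of 0.06. COL3A1, found with type I collagen in skin and vessels, had 0.05, and COL11A2, the partner of COL11A1, had 0.13.

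Of the 10 FACIT genes 7 were tested, 4 were higher and none was lower, with a median log2 fold change of 0.27. COL16A1, a minor fibril-associated chain, had 31.4, 35.2 and 20.0 normalized counts under p21 OFF and 54.7, 53.6 and 65.6 under p21 ON. Values in every p21 ON library exceeded those in every p21 OFF library, and the log2 fold change was 1.01 (SE 0.21, limma adjusted p = 0.00265). An exon of PEF1-AS1 overlaps COL16A1 on the opposite strand over 117 bases. The libraries were made with a stranded kit, but the strand setting of the counting is not stated in the sources used here.

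COL12A1 and COL14A1 encode the FACITs that coat type I collagen fibrils. COL12A1 had 5756, 7324 and 6883 normalized counts under p21 OFF and 8036, 7746 and 7851 under p21 ON. COL14A1 had 588, 635 and 680 under p21 OFF and 780, 754 and 717 under p21 ON. In both genes the groups were separate but close, with a log2 fold change of 0.25 for COL12A1 (limma adjusted p = 0.0207) and 0.24 for COL14A1 (limma adjusted p = 0.0247). With the trend of expression on canonical transcript length taken out of each library, COL12A1 fell to 0.07 (limma adjusted p = 0.333) and COL14A1 to 0.13 (limma adjusted p = 0.147). The exonic length trend likewise ended the calls of COL12A1 (limma adjusted p = 0.0752) and COL14A1 (0.0622), and the genomic span trend that of COL14A1 (0.265). COL12A1 was also not called without p21 ON replicate 1 (limma adjusted p = 0.0960) or p21 ON replicate 3 (0.0791). COL14A1 lost its call when replicate 2 of p21 OFF was left out (limma adjusted p = 0.0582), and likewise for replicate 1 (0.125) and replicate 2 (0.0653) of p21 ON.

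COL9A2 encodes a chain of type IX collagen, which binds cartilage fibrils. It had 261, 259 and 248 normalized counts under p21 OFF and 303, 300 and 319 under p21 ON, a clear separation of small size (log2 fold change 0.26, SE 0.086, limma adjusted p = 0.0351). The call ended in DESeq2 (adjusted p = 0.0696), without the filter on low values (limma adjusted p = 0.0511), with the replicate block (limma adjusted p = 0.0625), and without any 1 library other than p21 OFF replicate 1 (limma adjusted p = 0.0566 to 0.115). Of the remaining FACITs, COL21A1 had a log2 fold change of 0.42, COL19A1 0.35 and COL22A1, known from tissue junctions, 0.27, and none passed the threshold. Their values were between 11.3 and 34.1 normalized counts in any library, and the groups overlapped in all 3.

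Of the 9 genes for network-forming collagens 6 were tested, 2 were higher and 1 was lower, with a median log2 fold change of 0.12. DESeq2 called 2 higher and 0 lower. COL4A4 encodes a chain of the type IV collagen in the basement membrane of the kidney glomerulus, and had 50.2, 45.3 and 45.1 normalized counts under p21 OFF and 81.5, 75.5 and 83.6 under p21 ON. The libraries of each group were close together and the groups well apart, with a log2 fold change of 0.76 (SE 0.15, limma adjusted p = 0.00156). COL8A2 encodes a short chain of the sheet under the corneal endothelium, and had 92.9, 96.1 and 93.1 under p21 OFF and 122, 144 and 149 under p21 ON. Again no p21 ON value reached down to the p21 OFF values, with a log2 fold change of 0.55 (SE 0.12, limma adjusted p = 0.00396).

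COL4A6, a type IV chain of smooth muscle and epidermal basement membranes, was the collagen gene that fell. It had 67.8, 51.6 and 61.4 normalized counts under p21 OFF and 34.9, 43.9 and 42.8 under p21 ON. The groups were separate, and the log2 fold change was -0.56 (SE 0.18, limma adjusted p = 0.0294). The call was lost in DESeq2 (adjusted p = 0.101) and without the filter on low values (limma adjusted p = 0.0624). Leaving out replicate 1 (limma adjusted p = 0.0917) or 3 (0.0676) of p21 OFF, or replicate 1 (0.130) or 3 (0.0611) of p21 ON, also ended it. In DESeq2 and in these 4 fits no tested collagen gene was called lower. COL10A1, a marker of hypertrophic cartilage, had 491 to 577 normalized counts under p21 OFF and 474 to 519 under p21 ON (log2 fold change -0.07).

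The group of beaded filament and anchoring collagens had 4 of 7 genes tested, 1 higher and none lower, with a median log2 fold change of 0.047. COL7A1 encodes the anchoring fibrils that tie epithelial basement membranes to the tissue beneath. It had 7618, 6851 and 6976 normalized counts under p21 OFF and 10361, 8557 and 10582 under p21 ON. The lowest p21 ON library still lay above the highest p21 OFF library, and the log2 fold change was 0.46 (SE 0.075, limma adjusted p = 0.000319), so COL7A1 had the largest fold change among the 8 collagen genes with a mean of at least 1000. COL6A1 and COL6A2, chains of the beaded filaments around cells, had log2 fold changes of 0.04 and 0.05 with overlapping groups, and COL6A3, the long chain of the same filaments, had -0.13.

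Of the 4 transmembrane collagens only COL25A1, a neuronal collagen, reached the minimum for testing. It had 12.6, 15.6 and 14.8 normalized counts under p21 OFF and 29.1, 20.7 and 19.0 under p21 ON. The groups did not overlap, but the spread under p21 ON was wide and the log2 fold change of 0.63 did not pass (SE 0.27, limma adjusted p = 0.10). COL18A1, the precursor of endostatin, had 166, 134 and 135 under p21 OFF and 154, 130 and 205 under p21 ON, with the groups overlapping (log2 fold change 0.15). Exons of SLC19A1 overlap COL18A1 on the opposite strand over 1563 bases.

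**Figure D2:**
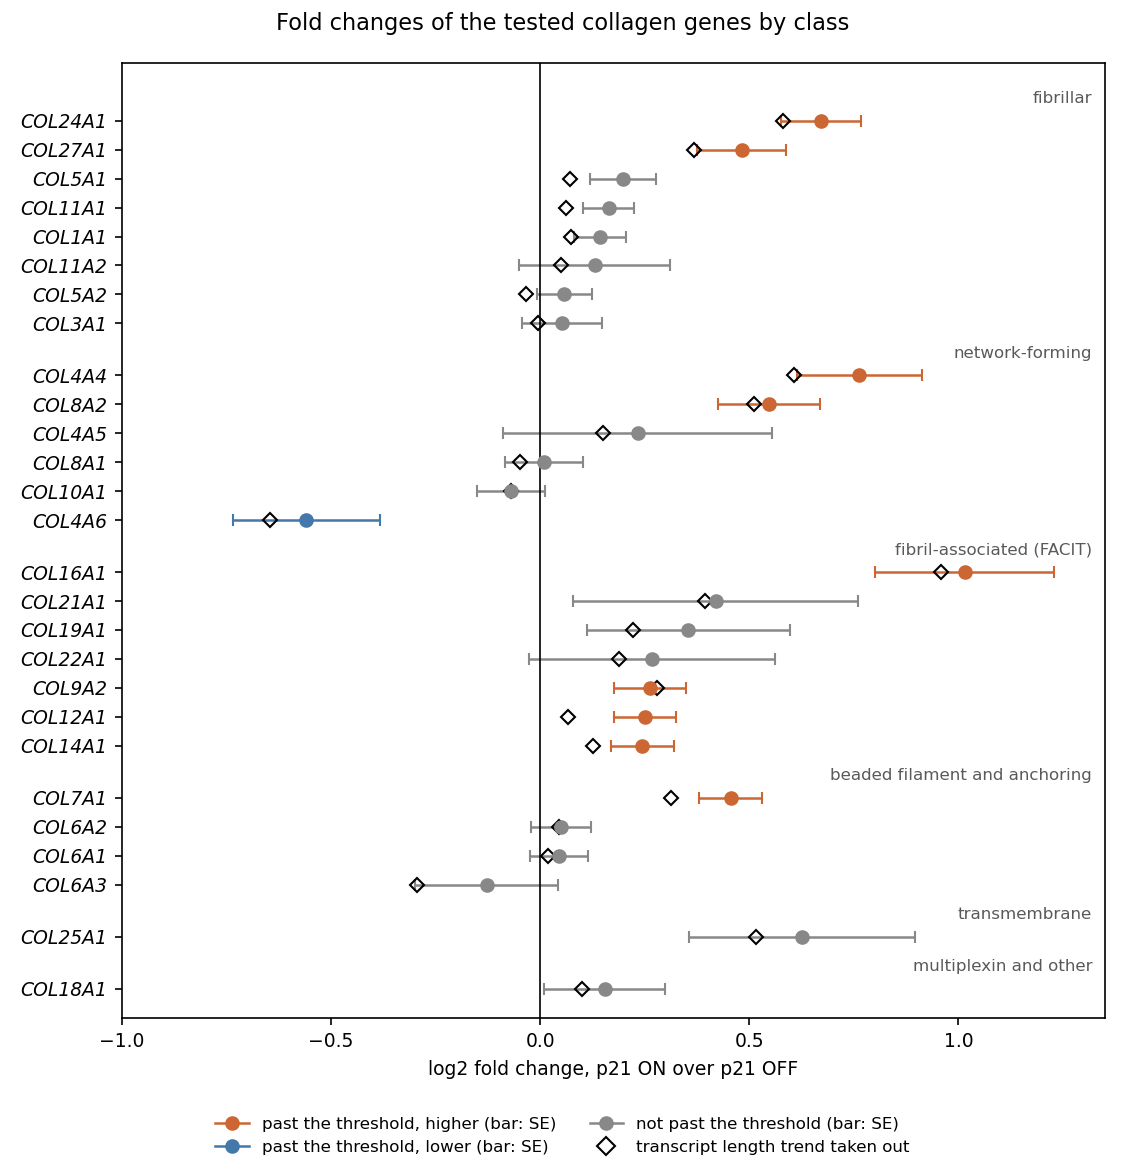
Log2 fold change of p21 ON over p21 OFF (x axis) for the 27 tested collagen genes, grouped by class (y axis). Circles give the fold change with its SE, orange for higher, blue for lower and grey for not past the threshold, and open diamonds the value with the trend on canonical transcript length taken out. COL16A1 is farthest to the right at 1.01 and COL4A6 farthest to the left at -0.56, and the diamonds of most genes lie to the left of the circles.

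The 16 genes under the minimum had means of 0 to 4.52 normalized counts and at most 8.53 in a library. COL4A1 and COL6A5 were at 0 in every library, and 14 genes had at least 1 read. In 14 of the 16 the groups overlapped. COL13A1, a transmembrane collagen, had 0, 1.56 and 0.74 normalized counts under p21 OFF and 2.33, 4.87 and 1.90 under p21 ON. COL15A1, a basement membrane collagen, had 3.77, 0.78 and 1.48 under p21 OFF and 0 in each p21 ON library. Both rest on a few reads, and without the filter COL15A1 passed the threshold (limma adjusted p = 0.0480) while COL13A1 did not (0.0941). The others were COL1A2, COL2A1, COL4A2, COL4A3, COL5A3, COL6A6, COL9A1, COL9A3, COL17A1, COL20A1, COL23A1 and COL28A1. The lowest tested mean was 11.6 for COL4A5, next to the highest untested mean of 4.52 for COL28A1.

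Levels were compared between genes as normalized counts per kb of annotated exons. COL6A1 and COL6A2 led with 17566 ± 627 and 17420 ± 1010 normalized counts per kb under p21 OFF (SD, n = 3) and 18123 ± 839 and 18025 ± 856 under p21 ON. They ranked 3 and 4 of 21251 genes with a known length, and which of the pair led depended on the length used, since per kb of canonical transcript COL6A2 came first. COL5A2 with 6550 ± 398 and COL5A1 with 4340 ± 503 under p21 OFF followed at ranks 28 and 45. COL1A1, COL7A1, COL11A1 and COL12A1 came next with 804, 642, 534 and 353 normalized counts per kb under p21 OFF. Under p21 OFF each of these 4 lay above the next by more than their SDs, whereas under p21 ON COL1A1 (888 ± 51.7) and COL7A1 (883 ± 99.8) did not differ beyond their spread. From COL10A1 with 138 downwards the tested genes spanned 2 further orders of magnitude, to 1.64 for COL25A1 and less for COL4A5.

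The 4 leading chains made up 90.4, 90.4 and 91.1% of the reads on collagen genes under p21 OFF and 89.1, 89.8 and 89.5% under p21 ON. Collagen genes as a whole took 1.87, 1.93 and 2.05% of all gene reads under p21 OFF and 2.11, 2.09 and 2.23% under p21 ON. Collagen shares of all gene reads in the p21 ON libraries were all above those in the p21 OFF libraries. With 3 against 3 libraries, an exact two-sided permutation p cannot fall below 0.1. None of the 4 leading genes passed the test in the fit reported here, with log2 fold changes of 0.04 to 0.20. COL5A1 did pass with scaling by library size alone (0.24, limma adjusted p = 0.0239), without p21 OFF replicate 3 (0.28, limma adjusted p = 0.0182) and with the replicate number as a block (limma adjusted p = 0.0406).

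**Figure D3:**
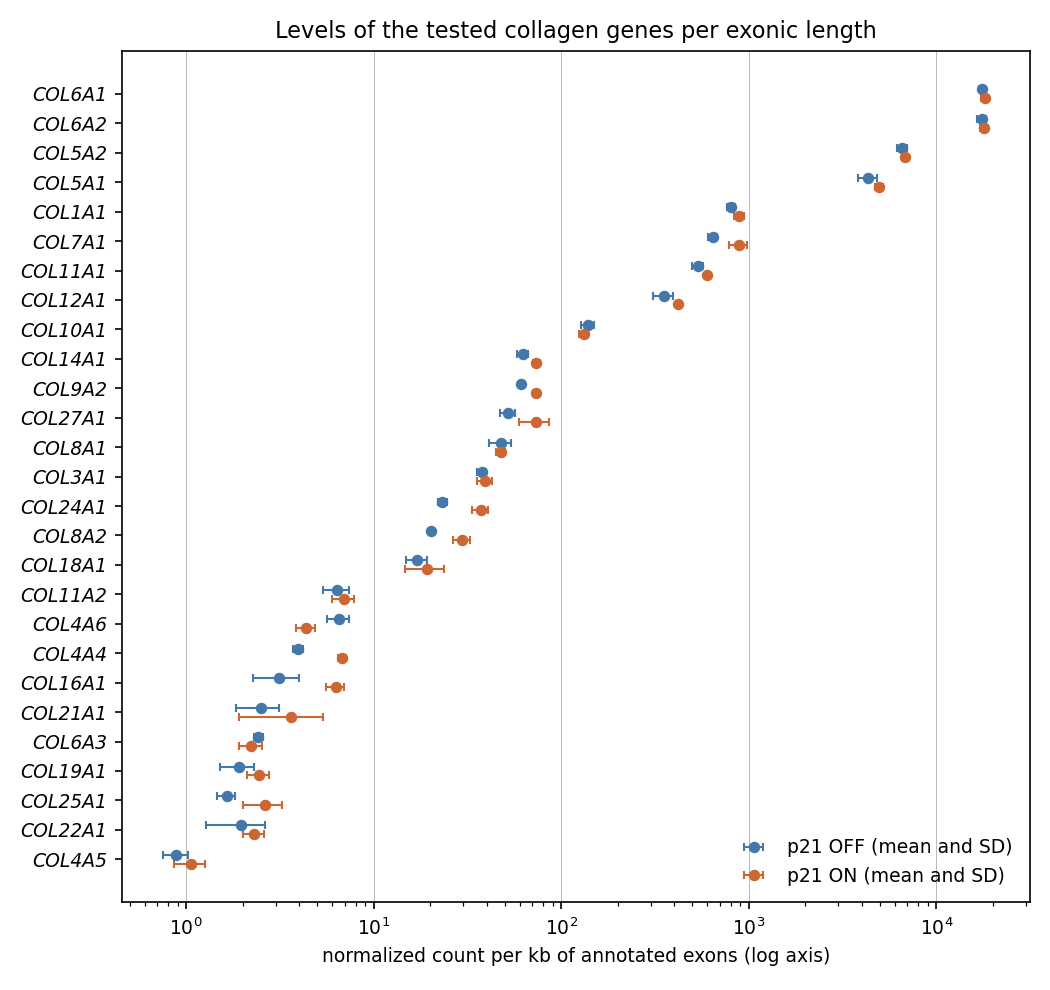
Mean normalized count per kb of annotated exons (x axis, log scale) of the 27 tested collagen genes (y axis), with p21 OFF in blue and p21 ON in orange and bars for the SD of 3 libraries. COL6A1 and COL6A2 stand at the top, between 17420 and 18123, and 10 genes stand under 10 at the bottom.

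Chains that share a trimer in tissue were set side by side per kb of annotated exons. The ratio of COL6A1 to COL6A2 was between 0.98 and 1.06 in the 6 libraries, and that of COL5A1 to COL5A2 between 0.63 and 0.77. These ratios depend on the length used. Per kb of canonical transcript they were 0.83 to 0.90 and 0.77 to 0.95. Partners of other abundant chains had few reads. COL1A2 had 1.56 to 4.87 normalized counts against 6936 to 8533 for COL1A1, and COL6A3 had 41.4 to 55.4 against 93526 to 105686 for COL6A1. COL9A1 and COL9A3 had at most 4.75 and 7.54 in a library, beside 248 to 319 for COL9A2. The ratio of COL8A1 to COL8A2 was 2.35 ± 0.27 under p21 OFF and 1.62 ± 0.20 under p21 ON (SD, n = 3). Per kb of canonical transcript it was 4.01 ± 0.45 and 2.76 ± 0.34. COL8A1 itself had a log2 fold change of 0.0095 with 396 to 511 normalized counts under p21 OFF and 423 to 474 under p21 ON.

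The type IV genes lie in 3 head-to-head pairs. Only the pair of COL4A6 and COL4A5 had both members tested, and COL4A5 was not called. The other pairs had a member under the minimum and so could not have both called. COL4A1 and COL4A2, whose annotated gene extents in GENCODE overlap by 1346 bases on GRCh37, were at 0 and at 1.16 to 4.43 normalized counts. COL4A3, the partner of COL4A4, had 2.51, 5.47 and 5.91 under p21 OFF and 1.16, 1.22 and 6.65 under p21 ON, while COL4A4 rose. COL4A3 also overlaps exons of MFF-DT on the opposite strand over 838 bases. COL4A5, the partner of COL4A6, had 8.79, 10.9 and 11.8 under p21 OFF and 15.1, 12.2 and 10.5 under p21 ON, with overlapping groups and a log2 fold change of 0.23 (SE 0.32, limma adjusted p = 0.632), while COL4A6 fell. COL4A3 was under the minimum for testing, and the difference in fold change within a pair was not tested.

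Transcript length moved with the fold change over all genes. The 27 tested collagen genes had a median canonical transcript of 6531 bases, against 3398 for all genes tested, and 84.2% of tested genes had a shorter transcript than this median. Their median genomic span was 156975 bases against 33941. Spearman's rho of log2 fold change with canonical length was 0.36 over 12601 genes and 0.23 over the 27 collagen genes, values computed across genes of the same libraries. Genes with a canonical transcript of 5000 to 7000 bases had a median log2 fold change of 0.056, and the 11 collagen genes among them 0.14. From 7000 to 10000 bases the medians were 0.13 over all genes and 0.40 over 8 collagen genes, and from 10000 bases up 0.20 and 0.061 over 2 collagen genes. Collagen genes thus had the higher median in the first 2 of these bins and the lower one in the last.

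**Figure D4:**
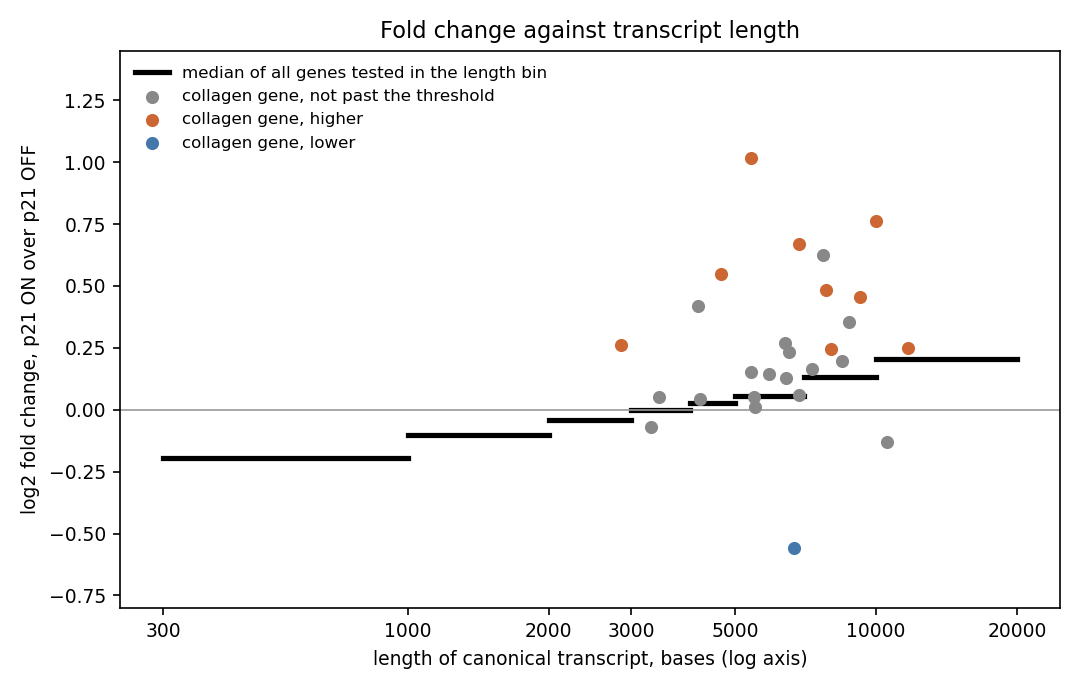
Log2 fold change of p21 ON over p21 OFF (y axis) against canonical transcript length in bases (x axis, log scale). Black lines give the median of all genes tested in each length bin, with the outer bins ending inside the axis, and points are the 27 tested collagen genes. The black lines climb from -0.20 under 1000 bases to 0.20 from 10000 bases up, and most collagen points lie above the line of their bin.

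The counts were read against genes of like length. Among 8636 genes tested whose exonic length was within the range of the collagen genes, 3830 to 21516 bases, 12.8% were higher and 9.59% lower. Among 1827 genes with a canonical transcript of 5413 to 7911 bases, the middle range of the collagen genes, 14.9% were higher and 5.69% lower, with a median log2 fold change of 0.087. The collagen shares of 33.3% and 3.70% stand beside these as a description. With the trend on exonic length taken out of each library, 7 collagen genes were higher and 1 lower and the median log2 fold change was 0.14. The trend on canonical transcript length gave 7 and 1 with a median of 0.099, and that on genomic span 9 and 1 with 0.12. Over all genes, the exonic length fit gave 1388 higher and 1680 lower, and the genomic span fit 1397 and 1655, of 12663 genes with a length. The canonical length fit gave 1331 higher and 1636 lower of 12601 genes. COL24A1, COL7A1, COL4A4, COL16A1, COL27A1 and COL8A2 were called in all 17 alternative fits, those 3 included.

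The length trend was present in single libraries. The median of 3046 genes with a canonical transcript of at least 5413 bases, less that of 2921 genes under 2000 bases, was -0.31, -0.050 and 0.0070 log2 units under p21 OFF and 0.19, 0.085 and 0.080 under p21 ON, each relative to the mean of all 6. Replicate 1 of p21 OFF stood apart with the lowest value. The median of the tested collagen genes, measured likewise, was -0.13, -0.088 and -0.042 under p21 OFF and 0.10, 0.087 and 0.12 under p21 ON. Without p21 OFF replicate 1 the median log2 fold change of the collagen genes was 0.18 and 10 were higher. Long genes and collagen genes were both higher in the p21 ON libraries, and the part of length, and of RNA quality, in the collagen result was not tested beyond these fits.

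**Figure D5:**
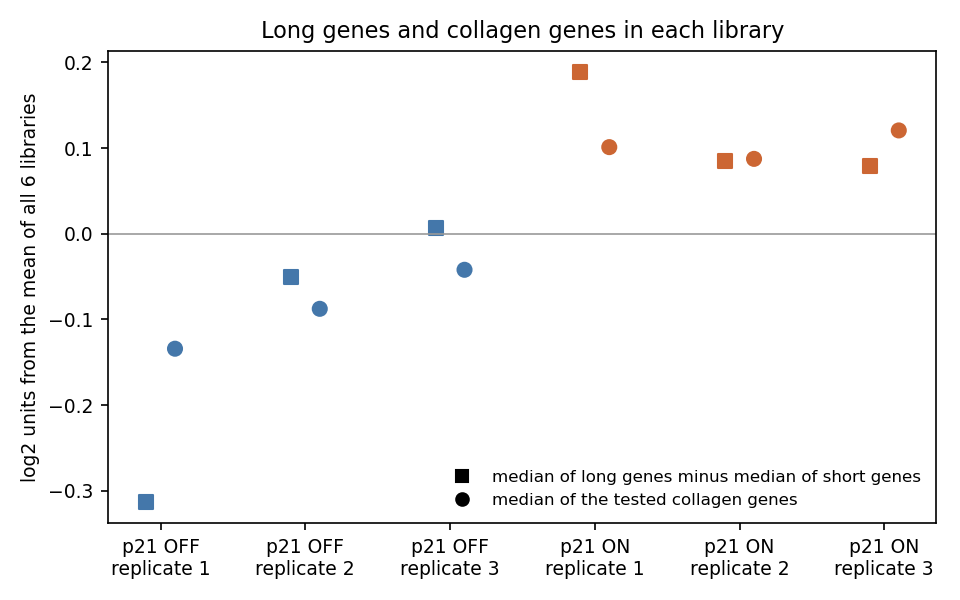
Deviation of each library from the mean of all 6, in log2 units (y axis), by library (x axis), with p21 OFF in blue and p21 ON in orange. Squares give the median of long genes less that of short genes, and circles the median of the 27 tested collagen genes. Circles and squares are both higher in the 3 p21 ON libraries than in the 3 p21 OFF libraries, and p21 OFF replicate 1 has the lowest square at -0.31.

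Level moved with the fold change as well. The 10 tested collagen genes with a mean under 100 had a median log2 fold change of 0.31, against 0.17 for all genes of that range. Of these 10, 2 were higher and 1 lower, against 9.88% and 2.38% of all genes of that range. Between 100 and 1000 the median was 0.24 for 9 collagen genes, against -0.0059 for all genes. Of these 9, 5 were higher and 0 lower, against 12.3% and 12.8%. At 1000 and above the median was 0.15 for 8 collagen genes and -0.035 for all genes. Of these 8, 2 were higher and 0 lower, against 8.16% and 19.6%.

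Genes that build, bind and break down collagen were counted by list, against the same 10.5% higher and 12.7% lower of all genes. Of 18 tested folding and modifying enzymes 2 were higher and none lower, with a median log2 fold change of -0.024. In this list 3 genes were lower at an unadjusted p under 0.05 in limma, 2 in edgeR and 1 in DESeq2. The 10.5% and 12.7% are for adjusted p and give no background for unadjusted counts. P3H2, a prolyl 3-hydroxylase listed as LEPREL1, had 374, 387 and 387 normalized counts under p21 OFF and 444, 448 and 513 under p21 ON. It was called at a log2 fold change of 0.29 (limma adjusted p = 0.0175), but not without p21 ON replicate 3 (0.0999) or with the trend on genomic span taken out (0.0795). COLGALT2, which adds galactose to hydroxylysine and is listed as GLT25D2, had 269, 284 and 291 under p21 OFF and 352, 350 and 354 under p21 ON (log2 fold change 0.32, limma adjusted p = 0.00990). SERPINH1, the collagen chaperone HSP47, had 0 to 3.49 normalized counts in a library, and whether its reads were fully counted cannot be settled from the table. P4HB, the beta subunit of prolyl 4-hydroxylase, had means of 44612 and 46880. None of 8 tested genes for procollagen export passed in either direction, with a median of -0.076. In that list limma, edgeR and DESeq2 each had 1 gene lower and 0 higher at an unadjusted p under 0.05.

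Of 9 tested genes for procollagen processing and crosslinking, 3 were higher and none lower, with a median log2 fold change of 0.11. ADAMTS3, which removes the amino-terminal propeptide, had 192, 193 and 214 normalized counts under p21 OFF and 251, 275 and 243 under p21 ON. Its log2 fold change of 0.36 was called (limma adjusted p = 0.0127), but not without p21 ON replicate 2 (0.0567) or with the genomic span trend taken out (0.0885). LOXL4 and LOXL3 belong to the lysyl oxidases that crosslink collagen. LOXL4 rose by 0.35 on the log2 scale, from 220 to 244 normalized counts under p21 OFF to 290 to 307 under p21 ON (limma adjusted p = 0.00886). LOXL3 had a log2 fold change of 0.32 (limma adjusted p = 0.0374), which DESeq2 did not call (adjusted p = 0.0961), nor limma without the filter (adjusted p = 0.0630) or without any 1 library other than p21 OFF replicate 2 (limma adjusted p = 0.0603 to 0.114).

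Collagen receptors had 4 higher and none lower of 8 tested genes, with a median log2 fold change of 0.26. ITGA10, ITGA11 and ITGA1 encode integrin alpha chains that pair with the ITGB1 chain to bind collagen. ITGA10 had 1533, 1452 and 1478 normalized counts under p21 OFF and 2220, 1795 and 1927 under p21 ON (log2 fold change 0.41, limma adjusted p = 0.00069). ITGA11 had 985, 1179 and 1341 under p21 OFF and 1513, 1506 and 1579 under p21 ON (log2 fold change 0.40, limma adjusted p = 0.00298). In both genes the groups were separate, and the calls held in all 17 alternatives. ITGA1 had a log2 fold change of 0.37 (limma adjusted p = 0.00915), not called without p21 ON replicate 1 (0.0587) or with the canonical length trend taken out (0.0582). DDR2, a receptor tyrosine kinase that collagen activates, had 0.28 (limma adjusted p = 0.0344), which fell to 0.12 with that trend taken out (0.182) and was not called with the exonic length (0.0559) or genomic span trend (0.0662) taken out. Leaving out replicate 1 of p21 OFF (limma adjusted p = 0.0821), or replicate 1 (0.203) or 3 (0.0968) of p21 ON, ended the call too. ITGB1 had means of 14184 and 13480 normalized counts and a log2 fold change of -0.07.

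Matrix partners of collagen fibrils had 1 higher and 2 lower of 10 tested genes, with a median log2 fold change of 0.071. LUM and PRELP encode small leucine-rich proteoglycans that bind fibrils. LUM had 11642, 10766 and 9753 normalized counts under p21 OFF and 8641, 9750 and 8012 under p21 ON, the second p21 ON library nearly touching the third p21 OFF library. It fell by 0.29 on the log2 scale (limma adjusted p = 0.0120), a call lost without p21 ON replicate 1 (0.0612) or p21 ON replicate 3 (0.0970). PRELP fell by 0.29 on the log2 scale as well (limma adjusted p = 0.00491), from 1257 to 1404 normalized counts under p21 OFF to 1048 to 1114 under p21 ON. THBS2, a matricellular protein, rose by 0.36 on that scale (limma adjusted p = 0.0167), but was not called without p21 ON replicate 2 (0.0762) or p21 ON replicate 3 (0.0565). Of 8 tested genes for collagen degradation and its inhibitors none passed in either direction, and the collagen-degrading MMP14 and MMP2 had log2 fold changes of 0.0055 and -0.03. No gene of that list reached an unadjusted p under 0.05 in limma, edgeR or DESeq2.

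Defining markers of the labelled line and of other cell types were read beside the collagens. The osteoblast factors RUNX2 and SP7 and the bone phosphatase ALPL had means of at least 3403 normalized counts in each group. BGLAP was at 0, and SPP1, PHEX, DMP1 and MEPE were under the minimum. Of 4 tested osteoblast markers 1 was lower, the bone sialoprotein gene IBSP (log2 fold change -0.38, limma adjusted p = 0.0264), which DESeq2 did not call (adjusted p = 0.0981). For IBSP limma gave no call without the filter (adjusted p = 0.0542) or with the exonic (0.133) or canonical length trend (0.0838) taken out. Leaving out p21 OFF replicate 1 (limma adjusted p = 0.0797) or any p21 ON library (0.0518 to 0.0977) also ended it. The summed level of the 9 osteoblast markers was 43749 to 46848 under p21 OFF and 44459 to 47895 under p21 ON. Of 6 tested chondrocyte markers none passed (2 higher at an unadjusted p under 0.05 in limma, 1 in edgeR and 0 in DESeq2). The summed level of the 8 chondrocyte markers was 27478 to 28386 under p21 OFF and 27786 to 29693 under p21 ON. The tested ones were SOX9, SOX5, MATN1, MATN3, CHAD and HAPLN1, with log2 fold changes from -0.71 to 0.83. ACAN was at 0 and COMP under the minimum. Fibroblast markers had 1 of 3 tested higher, PDGFRA (log2 fold change 0.27, limma adjusted p = 0.0141), with sums of 9415 to 10059 and 9476 to 9873. TWIST2 was at 0, and PDGFRB and FAP were under the minimum. The PDGFRA call was lost without p21 OFF replicate 2 (limma adjusted p = 0.0656) or p21 ON replicate 1 (0.0846). Endothelial markers had 1 of 2 tested higher, VWF (log2 fold change 0.50, limma adjusted p = 0.0333), lost in DESeq2 (adjusted p = 0.0673), with sums of 68.0 to 74.1 and 79.2 to 107. The VWF call was also lost without the filter (limma adjusted p = 0.0670) and with each of the 3 length trends taken out (0.0574 to 0.104). It did not hold without replicate 2 or 3 of p21 OFF or replicate 1 or 3 of p21 ON (limma adjusted p = 0.0532 to 0.162). CDH5, TEK and KDR, which define endothelium, were under the minimum. Epithelial markers had none of 2 tested past the threshold, EPCAM and KRT5, with sums of 328 to 398 under p21 OFF and 317 to 357 under p21 ON. CDH1 was under the minimum, and KRT14 and KRT19 were at 0. No haematopoietic marker reached the minimum. The part of these markers in the collagen result was not tested.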

How the data were processed

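Messenger RNA of SaOS-2 cells was sequenced in 6 libraries. The authors made stranded single-end libraries, aligned them to hg19 with STAR, obtained gene counts with HTSeq and scaled these by DESeq2 size factors. The signal deposited for each gene and library is such a normalized count. Tool versions are not given in the sources used here. All values were whole multiples of a step per library (within 0.05 reads), so whole reads were recovered for count tests.

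log2(normalized count + 1) was fitted with limma 3.58.1 (trend) in R 4.3.3 over genes with a mean of at least 10, without covariates, with Benjamini-Hochberg adjustment over 13255 genes and a threshold of 0.05. Alternatives were edgeR 4.0.16 (TMM) and DESeq2 1.42.0 on recovered reads, pseudocounts of 0.1 and 10, no filter, scaling by library size or TMM, a replicate block, lowess trends (span 0.3) on exonic length, genomic span and canonical transcript length taken out of each library, and each library left out. The last 2 trends and levels per kb of canonical transcript were added after seeing the data. Lengths and GRCh37 positions came from GENCODE 44, matched for 21251 rows (19137 by symbol, 2114 by older symbol), and sequences from RefSeq on GRCh38.p14. The fit was tested on simulated data with a dispersion common to all genes and no length trend, so that trend was not covered. It called 83 of 100 genes changed by 0.5 log2 units, 92 of 100 changed by 1, and 6 unchanged genes, of 13252 tested. The collagen genes and the gene lists were chosen with earlier results of these data known. Named genes were all collagens, trimer partners and head-to-head pairs, CDKN1A, and up to 4 genes per pathway list past the threshold by lowest adjusted p. Beside this rule, SERPINH1, P4HB, ITGB1, MMP14, MMP2 and marker genes are named for their roles or levels and were chosen after their values were seen. A marker gene of the plan is not reported here.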

Additional observations from a re-analysis of the deposited data

How the results depend on the processing

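Of the 10 collagen calls, 6 held in all 17 alternatives, and COL12A1, COL14A1, COL9A2 and COL4A6 did not, as given beside their values. Over single collagen genes, 412 values kept direction and side of the threshold, 24 lost it, 7 gained it and 13 changed sign. The median log2 fold change of the tested collagen genes, 0.23, was 0.17 with a pseudocount of 10, 0.27 with library size scaling, 0.14, 0.12 and 0.099 with the trends on exonic length, genomic span and canonical transcript length taken out, and 0.18 to 0.28 with 1 library left out. DESeq2 called 0 collagen genes lower, with COL4A6 at an adjusted p of 0.101 and 1 gene lower at an unadjusted p under 0.05, and leaving out 1 library gave 0 to 1. All genes higher numbered 692 to 1488 and lower 888 to 1662 with 1 library left out, the fewest without p21 ON replicate 1, and 739 and 1076 without p21 ON replicate 3. Collagen genes higher numbered 6 to 10 with 1 library left out and 12 with library size scaling, which added COL1A1, COL5A1 and COL11A1. These 3 genes account for the 7 values that gained the threshold. Changes of sign were in genes not past the threshold. COL8A1 had -0.0084 in edgeR, -0.00034 with TMM scaling, -0.051, -0.074 and -0.048 with the exonic length, genomic span and canonical length trends taken out, and -0.073 to 0.11 with 1 library left out. COL5A2 had -0.040 with the genomic span and -0.033 with the canonical length trend taken out. COL3A1 had -0.0046 with the canonical length trend taken out and -0.024 without p21 ON replicate 3, with a range of -0.024 to 0.10 over libraries left out. COL18A1 had -0.024 without that library, with a range of -0.024 to 0.30. The cause of these shifts was not tested.

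Same-numbered libraries did not deviate together (correlations of -0.057, -0.025 and -0.048 over 13255 genes). The labels do not say whether equal numbers share a culture or batch. A correlation over all genes cannot decide this, because it also holds the noise of single genes. With a replicate block, 9 collagen genes were higher and 1 lower, of 1407 and 1513 genes in all, with a median of 0.23. COL5A1 passed (0.20, limma adjusted p = 0.0406) and COL9A2 did not (0.26, limma adjusted p = 0.0625). Genes under about 10 normalized counts are limited by depth.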
